A study of Mus musculus with 21 samples.

Results

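Of 21 messenger RNA libraries made from the cecum of C57BL/6 mice, an inbred laboratory strain, 3 are described here. They came from the animals numbered 44, 45 and 46, all fed 2.5% broccoli powder, and are called 2.5% replicates 3, 4 and 5. All mice of the study started at 3 weeks of age on the Total Western Diet, a rodent diet modelled on typical American nutrient intake. After 6 weeks the diet was kept or changed for a further 3 weeks to one holding 0%, 0.5%, 1.0% or 2.5% broccoli powder, so the basal diet is common to all groups. The labels number most animals in blocks by diet, the exceptions being 76 and 77 at 0.5% and 80 at 1.0%. The ones used here name no cage, so whatever animals 44 to 46 shared besides the diet cannot be told apart from it.

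The 3 libraries were set against 12 of the 16 libraries of the other diets, namely 3 at 0.5%, 4 at 1.0% and 5 at 0%. The members were picked after the data had been seen, because Ppp1r15a, Dusp14 and Hist1h1e were high in the 3, and the 12 because genes of the small intestine were low in them. Every difference between the 3 and the 12 is therefore given as a description, without a test. The 6 libraries left out of this comparison, 2.5% replicates 1 and 2 and 4 libraries of the other diets, had more RNA of ileal genes and are called ileum-high. Fabp6, the ileal bile acid binding protein, was at 0.709, 0.466 and 0.272 CPM (counts scaled to library size with TMM factors) in the 3 libraries and at 0.107 to 1.84 CPM in the 12. It reached 11.9 and 13.9 CPM in 2.5% replicates 1 and 2 and 9.35 to 71.5 CPM in the 4 ileum-high libraries of other diets. Total counts were 34717641 to 39675518 in the 3 libraries and 28514263 to 58594569 in the 12, and mitochondrially encoded genes took 24.0% to 27.4% of counts in the 3 and 22.1% to 31.8% in the 12.

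The cecum is the blind pouch at the start of the large bowel, where microbes ferment what the small intestine leaves. Its lining answers injury, growth factors and stress with immediate early genes, which are transcribed from existing factors without new protein, and with feedback genes such as dual specificity phosphatases, which switch off MAP kinases. In the integrated stress response, kinases phosphorylate the translation factor eIF2alpha, and Ppp1r15a (GADD34) guides a phosphatase back to it. Broccoli brings glucosinolates, whose breakdown products are known activators of NRF2 and precursors of ligands of the aryl hydrocarbon receptor.

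The 4 genes that mark the 3 libraries were 2.92-fold to 4.87-fold higher there than in the 12, from the difference of mean log2 CPM. Ppp1r15a lies on the minus strand of chromosome 7 (GRCm38, 45522916 to 45526268). It had 45.96, 62.61 and 47.00 CPM in 2.5% replicates 3, 4 and 5, against 14.05 to 22.03 CPM (median 17.5) in the 12. The 3 values lay far above the narrow range of the 12. On the opposite strand it overlaps Tulp2, which had 0.684, 0.204 and 0.136 CPM in the 3 and up to 0.666 CPM in the 12.

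Dusp14, a phosphatase of MAP kinases on chromosome 11 (84048041 to 84069261, minus strand), had 7.34, 6.93 and 6.05 CPM in 2.5% replicates 3, 4 and 5, against 1.03 to 1.93 CPM (median 1.32) in the 12. Hist1h1e encodes a linker histone, which binds DNA between nucleosomes (chromosome 13, 23620629 to 23622558, minus strand). It had 11.2, 8.15 and 7.003 CPM in the 3 and 1.11 to 2.88 CPM (median 1.61) in the 12. Its locus overlaps other histone cluster genes on the same strand, so its reads may be split among them. Stx11, a syntaxin known for granule release by cytotoxic lymphocytes (chromosome 10, 12938209 to 12964298, minus strand), had 13.2, 10.01 and 13.5 CPM in the 3 and 2.49 to 4.28 CPM (median 3.30) in the 12. For all 4 genes the 3 libraries and the 12 did not overlap, which is how they were chosen.

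In 2.5% replicates 1 and 2, which had the same diet, the 4 marking genes stood with the other diets. Ppp1r15a had 16.9 and 19.0 CPM there, against 16 to 19.1 CPM in the 4 ileum-high libraries of other diets. Dusp14 had 1.47 and 0.980 CPM, against 0.738 to 2.09 CPM, and Stx11 had 2.42 and 3.75 CPM, against 2.98 to 3.27 CPM. Only Hist1h1e had both of its 2.5% values, 2.68 and 2.68 CPM, above all 4, which reached 2.02 CPM. By edgeR's quasi-likelihood test with Benjamini-Hochberg adjustment over 16202 genes, the log2 change at 2.5% in the ileum-high libraries was 0.04 for Ppp1r15a (95% interval -0.28 to 0.37), -0.49 for Dusp14 (-1.15 to 0.17), -0.01 for Stx11 (-0.48 to 0.45) and 0.51 for Hist1h1e (-0.13 to 1.15). None of the 4 passed an adjusted p of 0.05 (0.780 to 0.995). This is no unselected test of diet, because 2.5% replicates 1 and 2 remained after the libraries with high levels had been taken.

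**Figure D1:**
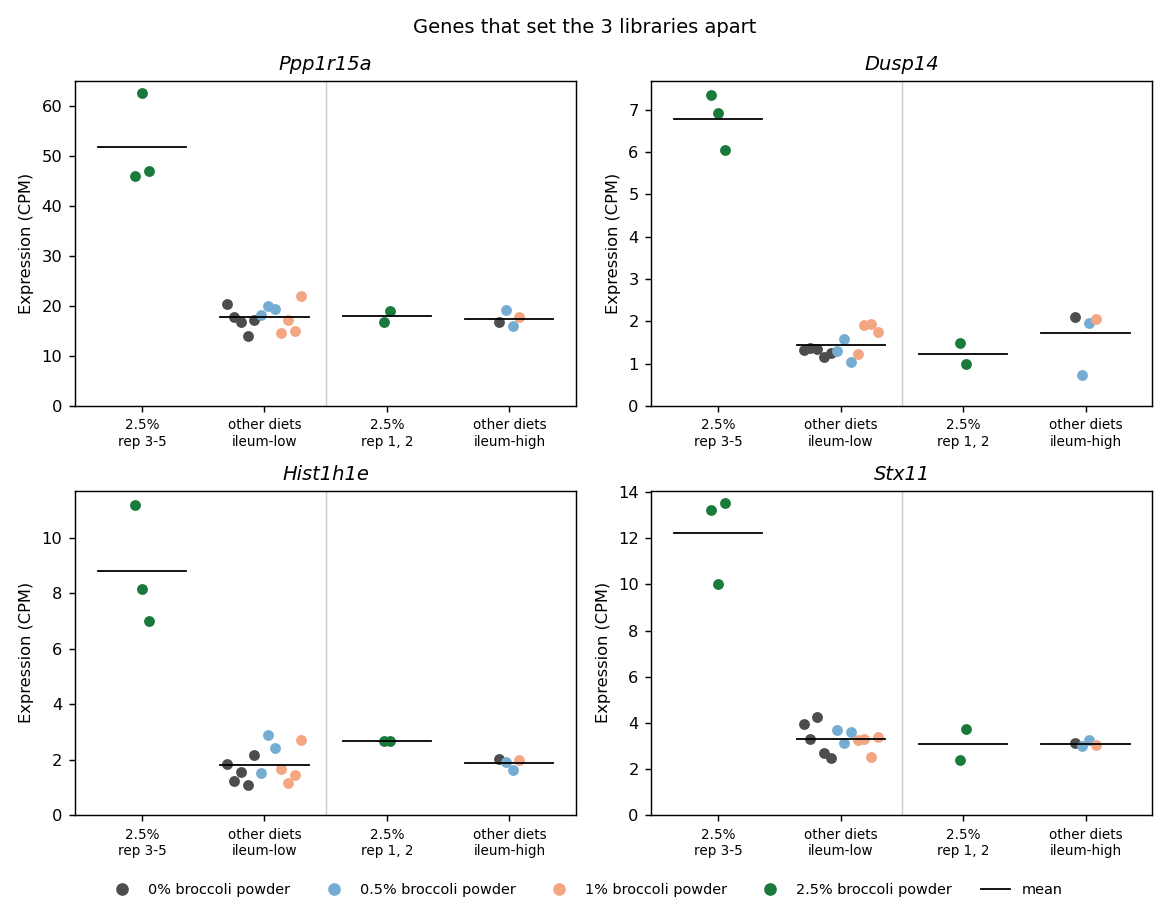
Level of each marking gene in every library, in CPM on a linear axis from 0, with 2.5% replicates 3 to 5 left of the 12 ileum-low libraries of other diets and 2.5% replicates 1 and 2 left of the 4 ileum-high libraries of other diets. Each point is a library coloured by diet and each line a mean. The 3 Ppp1r15a values from 45.96 to 62.61 CPM stand above all 18 others, while 2.5% replicates 1 and 2 lie at 16.9 and 19.0 CPM.

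Of the 16202 genes kept by a filter on low counts, 316 (1.95%) had all 3 libraries above all 12 and 70 (0.432%) had all 3 below. With counts scaled by library totals alone the numbers were 242 above and 103 below, so the excess of higher genes is smaller on that scale. The 316 differed by 0.12 to 3.55 on the log2 CPM scale (median 0.44), and 53 of them by at least 2-fold. Genes with a difference of at least 1 on the log2 scale and a mean of at least 1 CPM are called leading genes. There were 46 leading higher genes (0.284% of those kept) and 3 leading lower genes (0.0185%). The last genes inside the threshold were Tnfaip3 and Stk17b, both at 1.01, and the nearest outside were Arrdc4 at 0.98 and Hist1h2ap at 0.97.

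The leading higher genes held transcription factors and feedback regulators of signalling. Fosb, a subunit of the AP-1 factor, had 20.8, 28.6 and 32.7 CPM in 2.5% replicates 3, 4 and 5, against 1.32 to 16.8 CPM (median 5.66) in the 12. Atf3, a bZIP factor induced by many stresses, had 114, 200 and 107 CPM, against 16.9 to 61.2 CPM (median 34.1). For both genes the 12 spanned a wide range that stopped short of the 3. Dusp10, a phosphatase of the p38 and JNK kinases, had 72.2, 84.1 and 62.8 CPM, against 15.96 to 35.4 CPM (median 22.3). Ifrd1, a transcriptional coregulator named here after its values were seen, had 206, 282 and 215 CPM, against 49.99 to 114 CPM.

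Other leading genes act in transport and metabolism. Hephl1, a ferroxidase that oxidises iron, had the largest difference, 3.55 on the log2 scale, with 7.01, 4.42 and 4.55 CPM in 2.5% replicates 3, 4 and 5 and 0.122 to 1.21 CPM (median 0.401) in the 12. Pdk4, which inhibits the pyruvate dehydrogenase complex, was the most abundant of the 15 with the largest differences, at 307, 268 and 211 CPM, against 49.4 to 136 CPM (median 87.0). Slc38a3, a glutamine transporter, had 1.19, 1.31 and 0.872 CPM, against 0 to 0.511 CPM. These levels of Slc38a3 are low, and its difference of 2.70 depends on few reads in the 12.

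Secreted and membrane proteins formed a further group. Cxcl16, a membrane-bound chemokine, had 22.0, 26.3 and 27.5 CPM in 2.5% replicates 3, 4 and 5, against 5.82 to 11.4 CPM (median 7.26) in the 12. Calcb, which encodes a CGRP peptide of enteric neurons, had 8.10, 7.74 and 14.3 CPM, against 1.92 to 3.58 CPM (median 2.40). Replicate 5 was highest for both. Ceacam16, a secreted protein of the carcinoembryonic antigen family, had 3.04, 2.39 and 2.29 CPM, against 0.238 to 0.718 CPM. Calcb belongs to a family of near copies, so its reads may be split. Lsmem1 (log2 difference 2.24), Pxt1 (2.11) and Ttc16 (1.73) complete the genes named by size.

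Among the remaining leading genes, named after their values were seen, were several that act in inflammation and at epithelial junctions. Cldn4, a claudin of tight junctions, had 500, 603 and 519 CPM in 2.5% replicates 3, 4 and 5, against 104 to 392 CPM in the 12. Plaur, the urokinase receptor, had 29.8, 36.9 and 30.8 CPM, against 10.6 to 24.4 CPM. Tnfaip3, which restrains NF-kB, had 43.6, 64.5 and 54.9 CPM, against 18.9 to 41.0 CPM. Tnfaip3 and Plaur show how close to the 12 a leading gene could come. Trib1, a pseudokinase, had 204, 265 and 230 CPM, against 72.2 to 143 CPM. Zfand2a, known as induced by arsenite, had 65.6, 90.6 and 65.1 CPM, against 22.5 to 45.6 CPM. The 46 genes lay on 16 chromosomes. Their median level in the 12 was 5.30 CPM, beside 13.2 CPM for all genes kept.

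The mean log2 CPM of the 46 was 4.18, 4.30 and 4.19 in 2.5% replicates 3, 4 and 5, against 2.26 to 2.90 in the 12. Replicate 4 was the highest of the 3 for 24 of the genes, replicate 3 for 13 and replicate 5 for 9. The median coefficient of variation was 15.9% among the 3 and 26.4% among the 12, in genes whose choice favours agreement among the 3 and whose counts are higher there. For 38 of the 46 the 3 libraries were also the top 3 of all 21, and for the other 8 an ileum-high library reached into their range. Without 2.5% replicate 3, 4 or 5 the leading genes numbered 51, 47 and 53, of which 44, 41 and 44 were among the 46.

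**Figure D2:**
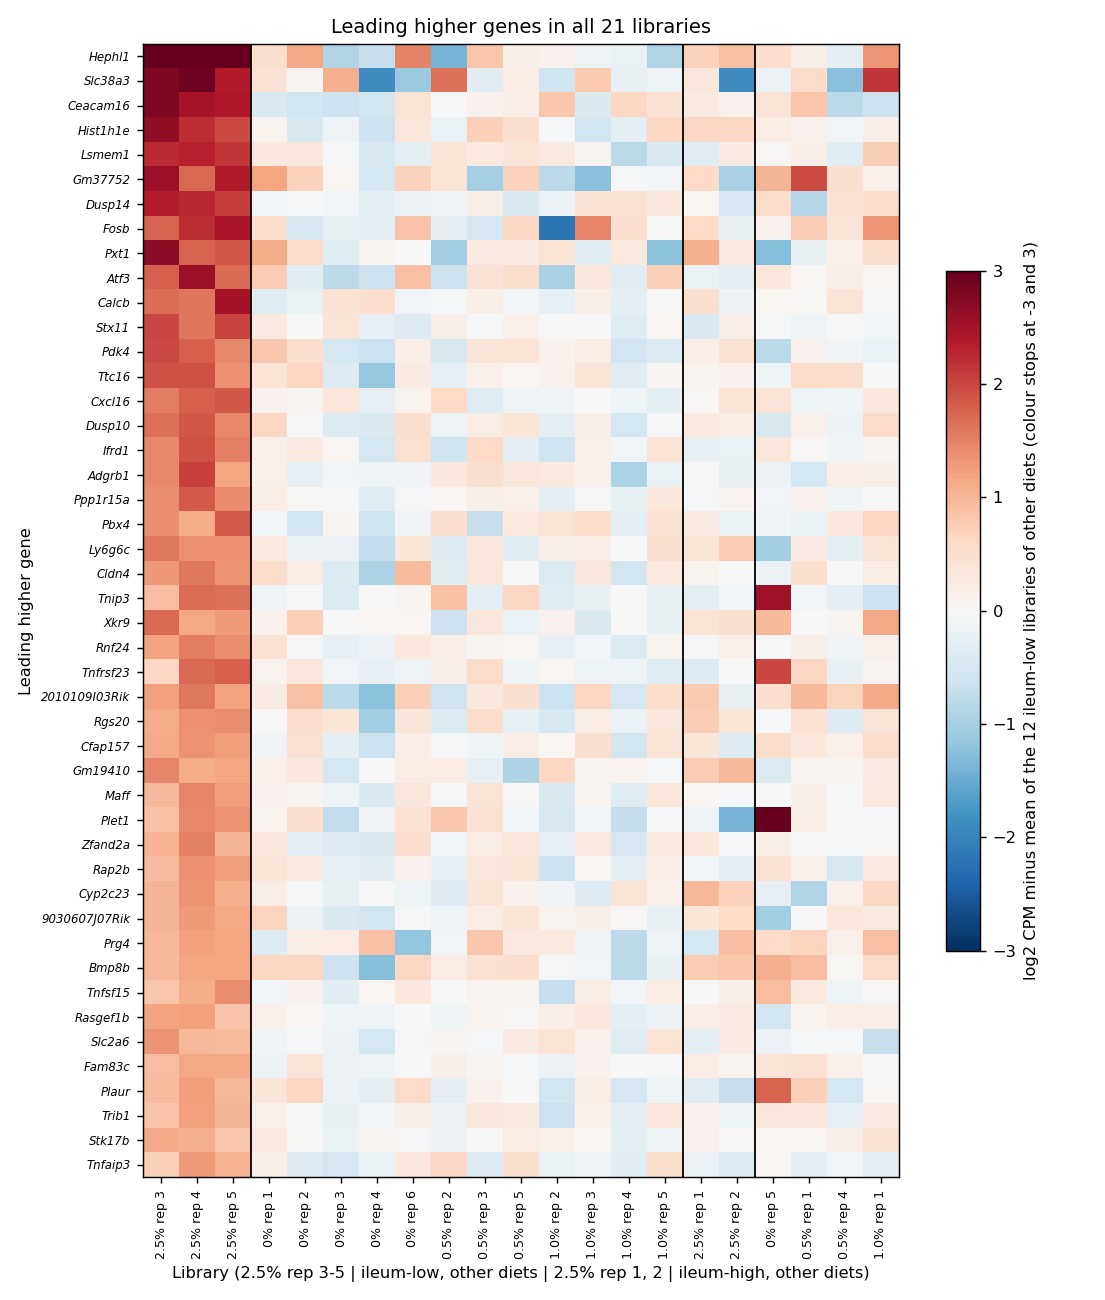
Level of each of the 46 leading higher genes (rows, largest difference at the top) in all 21 libraries (columns), as log2 CPM minus the mean of the 12 ileum-low libraries of other diets. Colour stops at -3 and 3. Black lines part 2.5% replicates 3 to 5, the 12, 2.5% replicates 1 and 2, and the 4 ileum-high libraries of other diets. The first 3 columns are high by the choice of genes, and 0% replicate 5 is high for Plet1, Plaur, Tnip3 and Tnfrsf23.

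Leading lower genes were few. Trf, the plasma iron carrier transferrin, had 1.09, 0.931 and 0.981 CPM in 2.5% replicates 3, 4 and 5, against 1.12 to 6.69 CPM (median 2.28) in the 12, a log2 difference of -1.15. Rab40b, a small GTPase, had 0.456, 0.611 and 0.708 CPM, against 0.793 to 1.98 CPM, a log2 difference of -1.01. The third was a predicted gene. For Trf the highest of the 3 lay just under the lowest of the 12.

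Promoter sequence was looked up for the leading higher genes in RefSeq windows of 250 bases before to 50 after the gene start (GRCm38.p6), and 31 of the 46 had one. Both strands were searched. The full cyclic AMP response element TGACGTCA, which CREB and ATF factors are known to bind, was in 3 of the 31 (9.68%), beside 2.88% of the 12216 kept genes with a window. Among the wider set of genes above all 12 it was in 6 of 230 windows (2.61%). These 3 sites are shown because one is in Ppp1r15a, with the element in capitals, read along the gene's strand:
Ppp1r15a (chr7:45526269-45526306, minus strand): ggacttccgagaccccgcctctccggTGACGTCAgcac
Ttc16 (chr2:32775732-32775791, minus strand): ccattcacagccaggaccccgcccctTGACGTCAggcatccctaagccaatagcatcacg
Zfand2a (chr5:139484583-139484642, minus strand): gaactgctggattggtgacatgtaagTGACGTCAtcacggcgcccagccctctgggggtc
The element began 12 bases before the RefSeq start of Ppp1r15a, 132 before that of Ttc16 and 125 before that of Zfand2a.

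The AP-1 motif TGANTCA was in 5 of the 31 windows (16.1%), beside 7.39% of windows of genes above all 12 and 5.48% of all windows. AP-1 is the factor that Fosb and Jun help to form, and sites of 4 named genes are shown with the motif in capitals:
Cldn4 (chr5:134947060-134947118, minus strand): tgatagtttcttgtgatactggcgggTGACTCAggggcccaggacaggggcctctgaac
Plaur (chr7:24462388-24462446, plus strand): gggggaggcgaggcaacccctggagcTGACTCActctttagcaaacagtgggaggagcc
Plet1 (chr9:50494355-50494413, plus strand): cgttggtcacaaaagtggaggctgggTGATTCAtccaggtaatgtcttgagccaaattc
Tnfaip3 (chr10:19015514-19015572, minus strand): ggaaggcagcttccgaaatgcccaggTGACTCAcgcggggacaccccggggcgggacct
Cldn4 had a second match further upstream. TATAAA was in 8 of the 31 (25.8%), beside 23 of the 230 windows of genes above all 12 and 8.38% of all windows. The following shares are set beside all windows. The core GCGTG of the aryl hydrocarbon receptor was in 16 (51.6%), beside 47.6%, the antioxidant motif TGACNNNGC in 4 (12.9%), beside 14.3%, the heat shock motif GAANNTTC in 2 (6.45%), beside 5.84%, and the E-box CACGTG in 4 (12.9%), beside 9.32%. The kappaB motif was in 3 (9.68%), beside 5.2%, and the CArG box in 0, beside 1.33%. Windows of the 31 had a median GC content of 60.7%, beside 60.0% for all. These matches are descriptions of letters in the window, in a list chosen for its levels.

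Of 24 immediate early genes tested, 8 had all 3 libraries above all 12, beside 1.95% of all genes, and 21 had a positive difference, with a median of 0.51, beside -0.01 for all genes. The 8 were Atf3, Fosb, Jun, Junb, Klf4, Klf6, Maff and Zfp36. The mean of the 24 was 5.69, 6.01 and 5.90 log2 CPM in 2.5% replicates 3, 4 and 5 and 4.84 to 5.64 in the 12. Jun had 634, 778 and 636 CPM, against 318 to 563 CPM, and Klf6 had 992, 1146 and 1052 CPM, against 487 to 752 CPM. Fos and Egr1, the classical members of the list, overlapped: Fos had 391, 452 and 385 CPM in the 3 and 145 to 459 CPM in the 12, and Egr1 had 284, 399 and 323 CPM in the 3 and 59.5 to 325 CPM in the 12. Junb had 237, 314 and 232 CPM, against 99.9 to 194 CPM.

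Of 15 dual specificity phosphatases, 4 were above all 12 (Dusp10, Dusp14, Dusp16 and Dusp18), beside 1.95% of all genes, with a median of 0.34 over the list. Dusp14 is among them by the choice of libraries, and the count was 2 with library totals and 6 without 0% replicate 6. Dusp16 had 98.2, 97.6 and 91.8 CPM in the 3, against 61.1 to 89.3 CPM in the 12. Apart from Hist1h1e, which the libraries were picked on, Hist1h1c alone of the linker histones tested was above all 12, beside 1.95% of all genes. Hist1h1c had 282, 285 and 284 CPM, against 118 to 243 CPM. With Hist1h1e counted, 2 of 6 were above all 12, and 4 without 2.5% replicate 4 or without 1.0% replicate 4. Of 18 syntaxins and their partners, Stx11 alone, a marking gene, was above all 12, and the median of that list was -0.02.

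Counts of genes above all 12 in lists named for stress are set beside the 1.95% of all genes. Of 19 genes of the integrated stress and unfolded protein responses, Ppp1r15a alone, a gene the libraries were picked on, was above all 12, and the median was -0.02. The list mean lay inside the range of the 12 in all 3 libraries, at 4.54, 4.60 and 4.52 log2 CPM, against 4.44 to 4.72. Atf4, the transcription factor of the integrated stress response, had 155, 181 and 168 CPM, against 129 to 167 CPM. Of 14 heat shock genes 0 were above all 12 and 13 had a negative difference, with a median of -0.10. Against the 5 libraries at 0% alone, 8 of the 14 were negative, and without animals numbered above 70 it was 10. The heat shock list mean was 5.63, 5.89 and 5.83 log2 CPM in the 3, against 5.71 to 6.47 in the 12, so replicate 3 lay below all 12. Hspa1b, an inducible HSP70 gene, had 19.3, 26.7 and 23.3 CPM, against 19.8 to 119 CPM. Counts of 1 of 19 and 0 of 14 are too small to be set apart from the share of all genes. In none of the 3 libraries did the mean of either list lie above the range of the 12. The 3 libraries are therefore called by diet and replicate number and not by the name stress-like.

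Of 16 p53 targets, Mdm2 and Cdkn1a were above all 12, beside 1.95% of all genes. The summed level of the list was 1101 to 1217 CPM in the 3 and 912 to 1063 CPM in the 12, without overlap. Mdm2 and Cdkn1a together held a large part of that sum. The list mean did overlap, at 4.42, 4.51 and 4.48 log2 CPM in the 3, against 4.16 to 4.43 in the 12. By that mean replicate 3 lay inside the range of the 12. The median of the list was 0.07, with 10 members positive. Mdm2, the ubiquitin ligase of p53, had 137, 157 and 160 CPM, against 68.3 to 93.2 CPM, and Cdkn1a, a cell cycle inhibitor, had 438, 532 and 462 CPM, against 303 to 432 CPM. Of 17 NF-kB targets and chemokines, Cxcl16 and Tnfaip3 were above all 12, and of 20 EGF ligands and wound epithelium genes, Ceacam16, Ly6g6c and Plaur were, against the same 1.95%. The lists were chosen with earlier results of these data known, and all of these are leading genes, so the counts are not independent of that choice. Ly6g6c had 40.01, 34.5 and 34.2 CPM, against 7.91 to 18.6 CPM. Of 19 junction genes, Cldn4, Cldn23 and Tjp1 were above all 12, beside 1.95% of all genes, and 2 were with library totals. Tjp1, a scaffold of tight junctions, had 181, 186 and 177 CPM, against 122 to 160 CPM. The junction list mean was 6.99, 7.18 and 7.01 log2 CPM in the 3, against 6.70 to 6.95 in the 12. It reached 7.02 in the ileum-high libraries of other diets, above replicates 3 and 5.

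All 24 genes of cholesterol synthesis and uptake were higher on average in the 3 libraries, with a median of 0.44, and 4 of the 24 (Acat2, Lss, Sqle and Stard4) were above all 12, beside 1.95% of all genes. With library totals 23 of the 24 were higher. Sqle, which makes squalene epoxide, had 65.5, 71.3 and 83.8 CPM in 2.5% replicates 3, 4 and 5, against 36.4 to 62.6 CPM (median 49.9) in the 12. The list mean was 6.08, 6.22 and 6.38 log2 CPM, against 5.63 to 6.04, with replicate 5 highest. Without replicate 3, 15 members were above all 12, and against all 16 libraries of other diets 0 were. The 4 ileum-high libraries of other diets had list means of 6.00 to 6.27, inside the range of the 3, and 2.5% replicates 1 and 2 had 5.75 and 5.93.

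For proliferation, 23 of 24 genes had a positive difference with a median of 0.33, and Ccnb1 and Tyms were above all 12, beside 1.95% of all genes. With library totals 0 of 24 were, and without replicate 5 it was 7 of 24. Mki67, a marker of dividing cells, had 193, 204 and 180 CPM in the 3, against 92.5 to 194 CPM in the 12. The list mean was 3.85, 3.91 and 3.63 log2 CPM, against 3.24 to 3.79, so replicate 5 lay inside the range of the 12.

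Of targets tied to broccoli constituents, 0 of 24 NRF2 targets and 1 of 6 aryl hydrocarbon receptor targets were above all 12. The share of all genes was 1.95%, and with library totals 0 of these targets were above. Against the 5 libraries at 0% alone, 3 NRF2 targets and 3 aryl hydrocarbon receptor targets had all 3 above, beside 788 of the 16202 genes. Of 24 NRF2 targets 0 were above all 12, with a median of 0.07, and Nqo1, a quinone reductase, had 78.8, 72.8 and 69.0 CPM, against 47.8 to 75.1 CPM. Of 6 aryl hydrocarbon receptor targets tested, Tiparp, an ADP-ribosyltransferase, was above all 12, at 48.4, 55.0 and 45.2 CPM, against 27.7 to 43.8 CPM. In that receptor's list 5 of the 6 were positive, with a median of 0.48 (0.44 with library totals). The list mean was 3.33, 3.60 and 2.77 log2 CPM in the 3, against 2.42 to 3.50 in the 12. Replicate 4 alone lay above the 12. The mean was 3.75 and 3.41 in 2.5% replicates 1 and 2, above the 2.74 to 3.39 of the other ileum-high libraries. There edgeR called 0 of the list. Cyp1a1, the classical target of that receptor, varied from library to library: 1.80, 4.37 and 0.708 CPM in the 3 and 0.328 to 4.35 CPM in the 12. Of the glucocorticoid (10 genes), hypoxia (12) and interferon (15) lists, 0 were above all 12. Isg15, an interferon-induced gene, had 2.61, 18.8 and 1.77 CPM, so that replicate 4 alone stood above the 1.75 to 8.45 CPM of the 12. Of 17 clock genes, Bhlhe40 was above all 12, and Nr1d1 differed among the 3, at 156, 111 and 64.6 CPM.

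**Figure D3:**
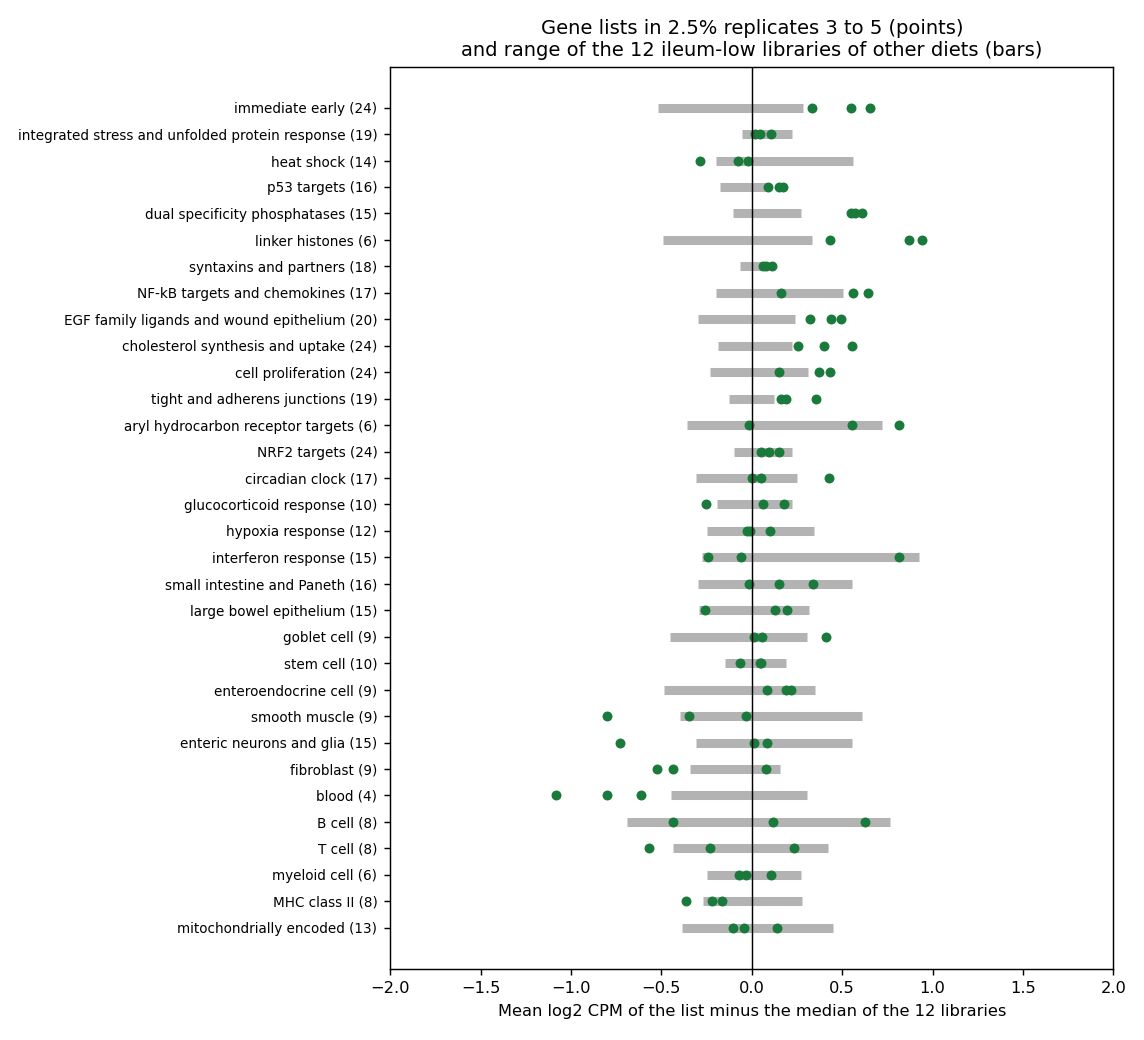
Mean log2 CPM of each gene list, minus the median of the 12 ileum-low libraries of other diets. Green points are 2.5% replicates 3, 4 and 5, grey bars span the 12, and the number of genes tested is in brackets. All 3 points lie above the bar for the immediate early, phosphatase, linker histone, wound epithelium, cholesterol and junction lists, and below it for blood. Ileum-high libraries are not drawn. Some of those of other diets reached into or above the range of the 3 for the wound epithelium, cholesterol and junction lists. All lists were chosen with earlier results of these data known. The phosphatase list includes Dusp14 and the linker histone list Hist1h1e, genes the libraries were picked on, so those 2 separations are partly set by the choice. The fat list is not drawn because its bar reaches beyond the axis.

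Markers of several other cell types were lower on average in the 3 libraries. All 9 smooth muscle genes tested had a negative difference (median -0.41), and the list mean was 7.75, 7.30 and 8.07 log2 CPM in 2.5% replicates 3, 4 and 5, against 7.70 to 8.71 in the 12. Replicate 4 was below all 12 and replicates 3 and 5 were within their range. Summed smooth muscle CPM was 1737 to 2964 in the 3 and 2339 to 4522 in the 12. All 9 fibroblast genes (median -0.26), 13 of 15 neuron and glia genes (-0.31) and 7 of 8 fat genes (-0.59) were also negative, and fibroblast sums were 381 to 567 CPM in the 3 and 432 to 594 CPM in the 12. The 4 blood genes tested were all negative, with sums of 3.90 to 3.95 CPM in the 3 and 4.63 to 8.40 CPM in the 12. Of the 4, Hba-a1 and Hbb-bs were below all 12, beside 0.432% of all genes. The part of these cell types in the leading genes was not tested. The list means of goblet, stem, enteroendocrine, B, T and myeloid cells and of MHC class II genes overlapped between the 3 and the 12. So did those of smooth muscle, fibroblasts, neurons and glia, and fat. By sign, 7 of 8 T cell genes (median -0.18) and 7 of 8 MHC class II genes (-0.24) were also negative. In bulk tissue, fewer cells of a type and less RNA per cell cannot be told apart.

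The small intestine list of 16 genes had a mean of 0.99, 0.81 and 0.64 log2 CPM in 2.5% replicates 3, 4 and 5, against 0.35 to 1.21 in the 12 and 2.34 to 5.18 in the 4 ileum-high libraries of other diets. Summed over the list, the 3 had 413.87 to 433.67 CPM and the 12 had 296.13 to 413.59 CPM, just short of overlap. That sum includes Fabp2, described under other observations. None of its genes was above all 12, and the Paneth cell gene Defa24 was at 0 in all 3. A count of 0 limits detection to this depth only. The large bowel list overlapped as well, at 6.13, 6.07 and 5.68 log2 CPM, against 5.65 to 6.26.

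The same diet step was compared in the libraries left out. This is no unselected test of diet for the marking and leading genes, because 2.5% replicates 1 and 2 are what remained of their diet after the libraries with high levels had been taken. At 2.5% in the ileum-high libraries (2.5% replicates 1 and 2 against the 4 of other diets), edgeR called 0 of 16202 genes, the lowest adjusted p being 0.415, while 488 genes were higher (3.01%) and 608 lower (3.75%) at an unadjusted p under 0.05. DESeq2 called 3. The 46 leading higher genes had a median change of -0.10, beside 0.00106 for all genes, with 18 positive and 28 negative. Of the 46, 6 had both 2.5% libraries above all 4 (13.04%), beside 7.61% of all genes. The 6 were Hist1h1e, Pdk4, Cyp2c23, Rasgef1b and 2 predicted or unnamed genes. Of the 316 genes above all 12, 18 (5.7%) had both above all 4. Both were below all 4 for 3 of the 46 (Atf3, Ifrd1 and Plet1), beside 7.4% of all genes.

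Pdk4 had 89.0 and 104 CPM in 2.5% replicates 1 and 2, against 44.4 to 84.8 CPM in the 4, a log2 change of 0.53 ± 0.38 (SE) with an adjusted p of 0.828 by edgeR. Cyp2c23, an epoxygenase of arachidonic acid, had 2.42 and 1.96 CPM, against 0.615 to 1.85 CPM, a log2 change of 0.86 ± 0.32 and an adjusted p of 0.667. Neither passed the threshold. Hephl1, with the largest difference in the 3, had 0.678 and 0.778 CPM, against 0.325 to 1.07 CPM.

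Some leading genes had lower levels at 2.5% in the ileum-high libraries, and 1 library weighed on 4 of them. Plet1, a surface protein of epithelial progenitors, had 12.4, 18.3 and 17.2 CPM in 2.5% replicates 3, 4 and 5, against 3.99 to 11.7 CPM in the 12. It had 6.19 and 2.54 CPM in 2.5% replicates 1 and 2, against 161, 7.78, 6.93 and 6.45 CPM in 0% replicate 5, 0.5% replicates 1 and 4 and 1.0% replicate 1. Its log2 change there was -3.39, with an unadjusted p of 0.0144 and an adjusted p of 0.667 by edgeR, and -0.71 without 0% replicate 5. The log2 change of Plaur was -1.27 (-0.68 without that library), that of Tnfrsf23 -1.10 (-0.40) and that of Tnip3 -1.26 (0.11), all short of the threshold. In 0% replicate 5 Plaur had 53.1 CPM, Tnfrsf23 17.5 CPM and Tnip3 23.7 CPM, levels above those of all 3 replicates 3 to 5 at 2.5%. The median of the 46 without 0% replicate 5 was -0.07. The ileum-high libraries also differed in their small intestine list, with means of 2.45 and 2.24 log2 CPM in 2.5% replicates 1 and 2 against the 2.34 to 5.18 given above, and its part in these changes was not tested.

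**Figure D4:**
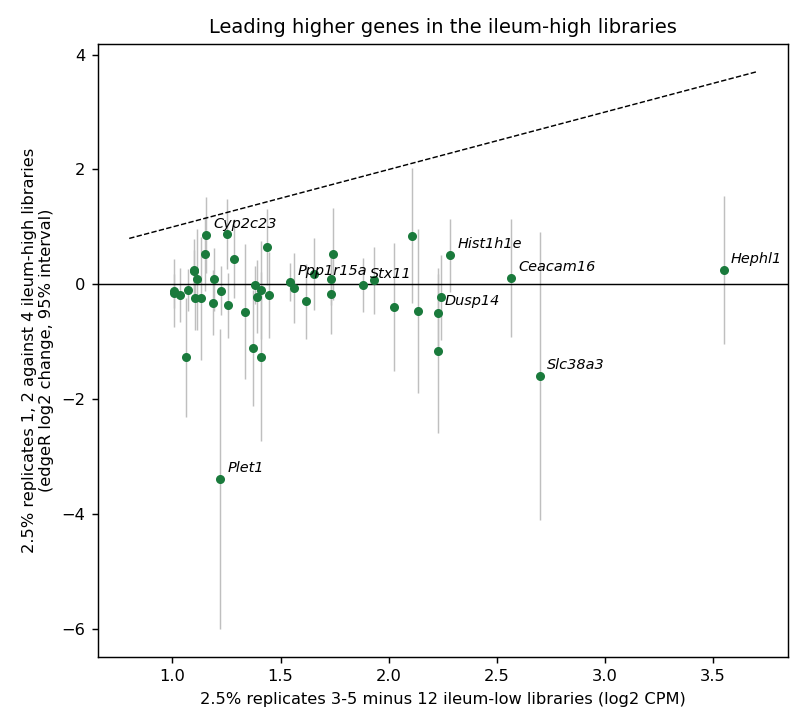
Each point is a leading higher gene, with the difference of 2.5% replicates 3 to 5 from the 12 ileum-low libraries on the horizontal axis (log2 CPM) and the change of 2.5% replicates 1 and 2 from the 4 ileum-high libraries of other diets on the vertical axis (edgeR log2 change with its 95% interval). The dashed line marks equal values. All points lie below it, 28 of the 46 are below 0, and Plet1 is lowest at -3.39.

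Lower doses were compared with 0% inside the 12 libraries, a split that had no part in choosing the members, although every leading gene was chosen to be low in all 12. At 0.5% against 0%, edgeR called 0 genes, with 403 higher (2.49%) and 725 lower (4.47%) at an unadjusted p under 0.05, and DESeq2 called 1. The 46 leading genes had a median change of 0.05, beside -0.02 for all genes, with 29 positive and 17 negative and 0 at an unadjusted p under 0.05. With library totals the median was -0.02. At 1.0% against 0%, edgeR and DESeq2 each called 0 genes, with 206 higher (1.27%) and 174 lower (1.07%) at an unadjusted p under 0.05. The 46 had a median of -0.07, beside -0.01 for all genes, with 14 positive and 32 negative. Of the 46, 3 had an unadjusted p under 0.05: Ceacam16 (0.81) and Pbx4 (0.57) were higher and a predicted gene was lower (-1.15), each with an adjusted p of 1. Both comparisons share the 5 libraries at 0%.

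Ppp1r15a averaged 19.2 ± 0.929 CPM at 0.5% (SD, n = 3), 17.2 ± 3.42 CPM at 1.0% (n = 4) and 17.3 ± 2.27 CPM at 0% (n = 5) in the ileum-low libraries. Dusp14 averaged 1.30 ± 0.278 CPM at 0.5%, 1.71 ± 0.331 CPM at 1.0% and 1.28 ± 0.0825 CPM at 0%. Hist1h1e averaged 2.28 ± 0.698 CPM at 0.5%, 1.74 ± 0.668 CPM at 1.0% and 1.59 ± 0.440 CPM at 0%. None of these genes was called by edgeR at either dose. The log2 changes at 0.5% and 1.0% were 0.15 and -0.00352 for Ppp1r15a, 0.02 and 0.41 for Dusp14 and 0.53 and 0.15 for Hist1h1e. With so few libraries per diet, a missing call does not show equal levels.

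Whether the 4 marking genes vary together was asked within the 12 libraries, which had not been chosen for high levels. Of the 6 pairs, Ppp1r15a and Hist1h1e had the highest correlation, with Pearson's r of 0.697 (permutation p = 0.0128, adjusted 0.0769) and Spearman's rho of 0.692 (permutation p = 0.0157, adjusted 0.0942). Without the 2 libraries farthest from the median of Ppp1r15a, r was 0.499. The other 5 pairs had r of -0.209 to 0.475, with permutation p adjusted over the 6 pairs of 0.355 to 0.85. Centred on the mean of each diet, r for Ppp1r15a and Hist1h1e was 0.646 (permutation p = 0.0217, adjusted 0.13). No diet had the 6 libraries needed for a value of its own.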

How the data were processed

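Stranded mRNA libraries were made from total cecal RNA, per the labels' protocols. Raw whole-number counts for each gene in 21 libraries were deposited by the authors in a single table. The submitters' processing notes name the build mm10. How the reads were aligned and counted, and whether strand was used, was not given in the sources used here, so overlapping genes may share reads. Replicate numbers follow accession order, and mice were taken as independent because the labels number each animal. The members, gene lists and tests were chosen with earlier results of these data known.

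Of 25361 identifiers, 25268 were named from GENCODE M21 and 16202 passed filterByExpr over 6 groups. CPM used TMM factors and log2 CPM a prior count of 2. No pair of libraries agreed within sampling noise (lowest chi-square per degree of freedom 17.1). Tests were two-sided, in 1 robust edgeR 4.0.16 quasi-likelihood fit of all 21 libraries (R 4.3.3), called at an adjusted p under 0.05, and the scripts were tested on simulated data. DESeq2 1.42.0 was an alternative. Correlations used 100000 resamples (scipy 1.17.1). Named genes were the 4 marking genes, the 15 largest differences per direction and up to 4 of each list, preferring those beyond all 12; others are named as chosen after their values were seen. Jun, Klf4, Klf6, Zfp36, Fos, Egr1, Atf4, Fabp6 and Tulp2 were such additions.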

Additional observations from a re-analysis of the deposited data

Results flagged for a closer look

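Among 60 groups of 4 or 5 libraries checked gene by gene, 4 held a library far from the others, and chance alone gives such a gap in about 1 of 20 groups. Dusp14 was at 0.738 CPM in 0.5% replicate 1, under the 1.95 to 2.09 CPM of the other ileum-high libraries of other diets. Ceacam16 was at 0.538 CPM in 0% replicate 6, above the 0.238 to 0.274 CPM of the other 0% ileum-low libraries. Trf was at 6.69 CPM in 1.0% replicate 5, above the 1.22 to 1.25 CPM of the other 1.0% ileum-low libraries. Rab40b was at 0.939 CPM in 1.0% replicate 3, under the 1.14 to 1.16 CPM of the same libraries.

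For Atf3, Ifrd1 and Plet1 the 2.5% libraries lay on opposite sides: all 3 above all 12 among the ileum-low libraries, and both below all 4 among the ileum-high libraries. These 3 of the 46 leading genes are no larger a share than the 7.4% of all genes with both below all 4. Atf3 had 28.7 and 27.4 CPM in 2.5% replicates 1 and 2 against 34.2 to 41.0 CPM in the 4, a log2 change of -0.394. Ifrd1 had 65.2 and 66.2 CPM against 69.7 to 95.2 CPM, a log2 change of -0.295. Plet1 had a log2 change of -3.39. The difference between the ileum-low and ileum-high libraries was not tested for any of the 3, and Ifrd1 and Plet1 were named after their values were seen.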

How the results depend on the processing

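Scaling by DESeq2 size factors left 46 leading higher genes, all shared, library totals 45 (44 shared) and libraries without animals numbered above 70 47 (46 shared). Against the 5 libraries at 0% alone, 788 genes had all 3 above and 488 all 3 below, with 55 leading higher and 22 leading lower genes; against all 16 libraries of other diets there were 202 above, 35 below and 35 leading higher. Leaving out 1 library gave 309 to 596 above (596 without 2.5% replicate 5), 79 to 359 below, 44 to 53 leading higher and 2 to 15 leading lower genes. The 18 marking and leading genes followed through 22 settings kept their direction in all 396 values. That outcome was largely set in advance, because these genes were chosen with all 3 libraries beyond all 12. In the ileum-high libraries the calls at 2.5% were 3 by DESeq2 (Anxa13, Ceacam18 and Cyp2d22), 1 in a fit of the compared libraries only (Cdk8) and 0 to 2 without 1 library (Anxa13 and Dab1 without 0.5% replicate 1, Anxa13 without 0.5% replicate 4). At 0.5% they were 1 by DESeq2 (Zfhx2) and 0 to 1 without 1 library (Bmp2 without 0% replicate 1), and at 1.0% 0 to 0. No such call was a leading gene, and the cause was not tested. The median of the leading higher genes without 1 library was -0.147 to -0.0267 at 2.5%, -0.00298 to 0.149 at 0.5% and -0.151 to -0.00272 at 1.0%. That of the 3 leading lower genes at 2.5%, 0.148, was -0.29 to 0.337. With library totals Spearman's rho of Ppp1r15a and Hist1h1e was 0.797 (permutation p adjusted over the 6 pairs 0.0182). No paired analysis was possible because replicate numbers follow accession order and animal numbers are not shared between diets. With 3 members picked on their values, the precision of every difference from the 12 is unknown.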

Other observations

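Chgb, a granule protein of enteroendocrine cells, had 76.5, 88.6 and 71.9 CPM in 2.5% replicates 3, 4 and 5, against 32.4 to 61.1 CPM (median 53.9) in the 12 ileum-low libraries of other diets. It was the 1 gene of 9 in its list above all 12, beside 1.95% of all genes. In 2.5% replicates 1 and 2 it had 62.3 and 50.2 CPM. Summed over the enteroendocrine list, the 3 libraries had 104 to 126 CPM and the 12 had 55.3 to 95.5 CPM, although the mean log2 CPM of the list overlapped. Chgb itself held most of that sum in the 3. The 4 ileum-high libraries of other diets had sums of 87.8 to 121 CPM, which overlapped the 3. Scnn1a, a subunit of the epithelial sodium channel, averaged 61.6 ± 3.33 CPM in the 3 (SD, n = 3) and 49.3 ± 5.82 CPM in the 12 (SD, n = 12). It was the 1 gene of 15 in the large bowel list with all 3 above all 12, beside the same 1.95%. Fabp2, a fatty acid binding protein shared by small and large bowel, had 233, 237 and 238 CPM in the 3, against 128 to 234 CPM in the 12. These values are descriptions, since the libraries were picked on their levels.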
